A study of Mus musculus with 25 samples.

Results

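The genes described here build and supply the cilium. They were picked by name: every gene of the 4 deposited tables whose symbol begins with Ift, Bbs, Dnah, Dnal, Dnai, Tekt, Cfap, Rsph, Spag, Spef or Kif3a to Kif3c followed by its number or letter, together with Arl13b and Akap14. The rule found 51 of the 12454 genes in any table, of which 25 were in all 4 tables and 8 in 1 table. No Cfap gene was listed. By role, 14 were intraflagellar transport (IFT) genes, 3 were kinesin-2 subunits, 8 were BBSome-related genes with Arl13b, 23 were genes of the motile axoneme, and 3 were Spag genes whose products work outside the axoneme.

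A cilium is a microtubule shaft, the axoneme, that projects from the cell surface. Kinesin-2 carries trains of IFT-B and IFT-A proteins to the tip, dynein carries them back, and the BBSome, riding on the trains, moves receptors through the ciliary membrane. Astrocytes and neurons each carry a solitary primary cilium, which has no dynein arms and serves as an antenna for Hedgehog and other signals. Ependymal cells, which line the central canal of the cord, carry motile cilia whose axonemes also hold outer and inner dynein arms, radial spokes, a central pair and tektins.

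The libraries came from a RiboTag experiment on mouse thoracic spinal cord: Cre driven by Gfap sequences switches on a haemagglutinin (HA) tag on a ribosomal protein, and the tagged ribosomes are pulled down with their RNA. Wild-type (WT) mice, GfapCre:Ribotagfl/fll on C57BL6, gave 4 uninjured libraries and 4 from 24 hours after lipopolysaccharide (LPS, 5 mg/kg into the peritoneum). GfapCre:Ribotagfl/fl:Stat3fl/fl mice on C57BL6 (Stat3cKO) gave 3 uninjured and 4 LPS libraries. GfapCre:Ribotagfl/fl:Smarca4fl/fl mice on C57BL6;129S2 (Smarca4cKO) gave 3 uninjured libraries, 3 LPS libraries and 4 from 14 days after the cord was fully crushed at T10 (spinal cord injury, SCI), taken from the central 3 mm of the lesion. All groups carry GfapCre and the RiboTag allele, and each library title is a separate animal number. In bulk RNA of this kind, fewer cells of a type and less RNA per cell cannot be told apart.

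Library totals ran from 52433934 to 106513035 counts. The astrocyte marker list (15 genes) was in all 4 tables, with Gfap at 5106 to 26400 CPM, the deposited counts scaled to a common library total. Smarca4, counted over the whole gene, was at 64.0 to 90.3 CPM in WT uninjured libraries and 12.7 to 21.8 in Smarca4cKO uninjured libraries, but at 50.0 in the library labelled Smarca4cKO LPS 2. Stat3 was at 8.61 to 21.6 CPM in Stat3cKO uninjured libraries and 92.8 to 322 in the libraries labelled Stat3cKO LPS, against 101 to 153 in WT uninjured, and a count over the whole gene cannot tell its exons apart. The share of the genes common to all tables with 10 or fewer counts was 4.06 to 8.22% in Smarca4cKO uninjured libraries and 0.906 to 14.4% in Smarca4cKO LPS libraries, against 0.051 to 3.23% elsewhere.

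Many ciliary genes of vertebrates are switched on by RFX factors, which bind the X-box, and those of motile cilia also by FOXJ1, a forkhead factor. Promoter windows (RefSeq, GRCm38.p6, from 250 bases before to 50 after an annotated start) existed for 44 of the 51 genes. The X-box core GTTGCC, on either strand, was in the window of 17 of the 44 (38.6%), against 15.2% of 9415 genes of the tables and 14.1% of all 27024 genes with a window. It was in 11 of 22 transport and BBSome genes (50.0%) and 6 of 19 motile axoneme genes (31.6%). The forkhead core TGTTTAC, on either strand, was in 1 of the 44, Akap14, against 3.01% of the genes of the tables. The matches of the genes that the results turn on, and 1 match in each of 3 transport genes for comparison, are shown as stretches read 5′ to 3′ on the gene's strand, with the matched letters in capitals. Where the capitals read GGCAAC or GTAAACA, the match is on the opposite strand.
Tekt4, chr17:25471587-25471614, + strand: aatgttccttaGGCAACcaggaaccttg
Tekt1, chr11:72361901-72361928, - strand: cttctaactagGGCAACgttgcgtccgt
Tekt1, chr11:72361881-72361908, - strand: gcgtccgtccgGTTGCCatagagaccgc
Rsph3b, chr17:6948324-6948351, - strand: tcgggttgctcGGCAACcgatgggggcg
Bbs7, chr3:36613494-36613521, - strand: aatgcgccccgGTTGCCttggaaaccgg
Bbs1, chr19:4906610-4906637, - strand: tggctgagctgGTTGCCaaggcgacgcc
Akap14, chrX:37168840-37168868, - strand: tggcagcacttGTAAACAttctctttagg
Ift57, chr16:49699196-49699223, + strand: aggcgggtctgGTTGCCgtggtgaccgg
Kif3a, chr11:53567260-53567287, + strand: accccgcaggcGTTGCCccagtctagcg
Kif3c, chr12:3364945-3364972, + strand: cgagaatggcgGTTGCCgagagaacacg
Taking the start base as 0, the match began at -15 in Akap14, at -35 and -15 in Tekt1, at -121 in Bbs7, and after the start in Tekt4, Rsph3b and Bbs1. The windows of Dnah1, Dnah5 and Spag9 held neither motif. A match is a description of the letters and says nothing of whether a factor binds there.

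**Figure D1:**
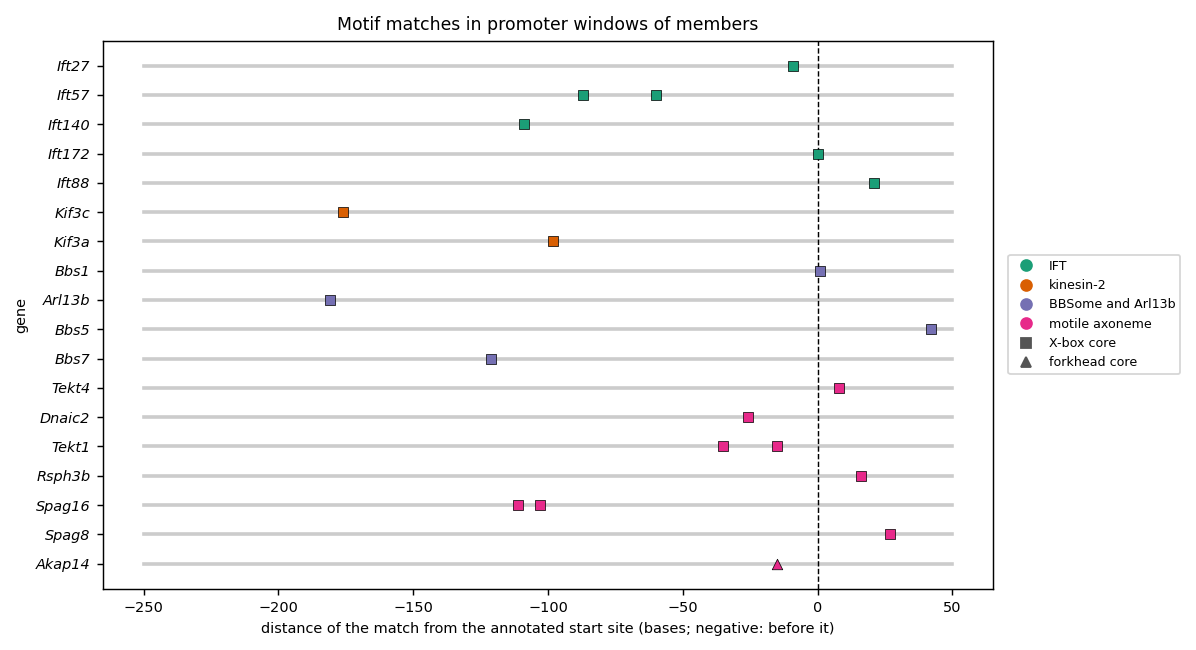
Position of each motif match in the promoter windows of the 18 genes that held one (x axis: bases from the annotated start site, negative before it). Squares are X-box core matches and the triangle is the forkhead core match of Akap14, coloured by role, with grey bars marking the window from 250 bases before to 50 after the start.

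The transport genes were listed broadly and the motile axoneme genes patchily. All 14 IFT genes were in 3 or 4 tables and the 3 kinesin-2 genes were in 4. Of the 23 motile axoneme genes, 6 were in 1 table, 7 in 2, 4 in 3 and 6 in all 4. The 6 shared ones were Rsph1 and Rsph9 (radial spoke), Dnaic1 and Dnaic2 (outer arm intermediate chains) and the light chains Dnal1 and Dnal4, of which cells without motile cilia also use the last pair. The dynein heavy chains Dnah1, Dnah5, Dnah6 and Dnah9 were each in 1 table.

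Levels can be compared between genes only per length, and on that scale (CPM per kb of exon) Spag7 was highest in WT uninjured libraries at 72.2. The IFT-B genes Ift27 and Ift57 led the IFT genes at 33.2 and 17.96, Kif3a and Kif3c were at 14.9 and 9.43, and Bbs2 and Bbs1, BBSome subunits, at 6.87 and 3.25. Rsph1 and Dnal4 led the motile axoneme class at 14.9 and 13.9, so these 2 were at the level of Kif3a. Spag8, a protein of the motile axoneme, was lowest at 0.0445. Spag9, a scaffold that links kinase signalling to microtubule motors, was at 23.7, and Spag5, a spindle protein, at 15.1.

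**Figure D2:**
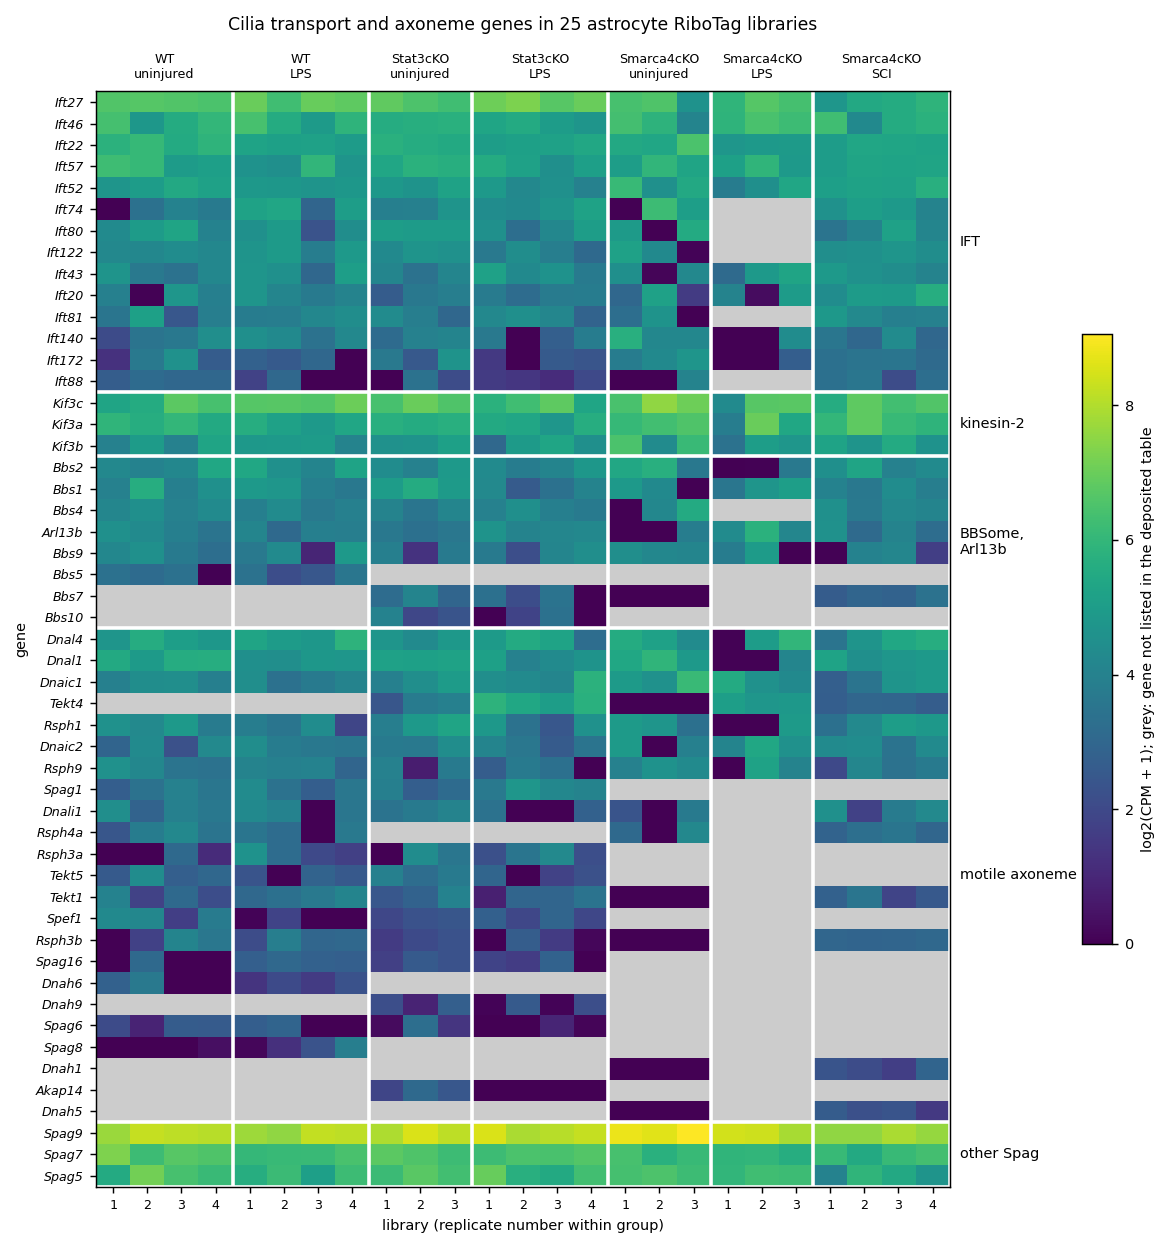
Level of each of the 51 genes (rows, grouped by role) in each of the 25 libraries (columns, grouped by genotype and challenge), as log2 of CPM + 1, with grey where a gene was not listed in the table that holds the library. The IFT, kinesin-2 and Spag5, Spag7 and Spag9 rows are filled in nearly every library, and the motile axoneme rows hold most of the grey.

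Many members swung between plentiful and nearly absent within 1 group. Among the 25 shared members, the median coefficient of variation between libraries was 41.6% in WT uninjured, 33.1% in WT LPS, 22.2% in Stat3cKO uninjured, 42.9% in Stat3cKO LPS, 50.4% in Smarca4cKO uninjured, 62.9% in Smarca4cKO LPS and 33.1% in SCI. For the 7259 genes in the same range of mean levels these medians were 32.4%, 32.1%, 19.998%, 28.6%, 46.8%, 53.9% and 24.7%. The members' medians were above them in each group, in WT LPS only slightly. That range holds most of the 7834 shared genes, so level was not matched here or in the shares below. The part of low counts in these gaps was not tested. The steadiest member was Ift27 in WT uninjured (5.70%), Dnal1 in Stat3cKO uninjured (2.86%) and Ift57 in SCI (9.43%).

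In Stat3cKO LPS, 10 of 45 members (22.2%) had 10 or fewer counts in 1 library and 300 or more in another, against 7.04% of all genes in that table. The shares were 30.8% of 26 members in Smarca4cKO LPS against 21.5% of genes, 15.9% of 44 against 4.84% in WT LPS, and 15.9% of 44 against 12.05% in WT uninjured. In the other groups the gap was small, at 4.44% against 2.78% in Stat3cKO uninjured and 2.56% against 1.51% in SCI. Smarca4cKO uninjured libraries had 30.8% of 39 members against 29.9% of genes in the SCI table, and 15.4% of 26 against 13.7% in the LPS table. Ift140, an IFT-A protein, shows the pattern, with CPM of 0.0166, 0.0136 and 20.4 in the Smarca4cKO LPS libraries, and of 50.9, 17.3 and 17.4 in the uninjured ones. Dnali1, an inner arm light intermediate chain, was at 9.73, 0, 0 and 6.06 CPM in Stat3cKO LPS. Ift74, an IFT-B core protein, was at 0, 9.39, 15.03 and 12.3 CPM in WT uninjured libraries. A count of 0 in such a series does not show that the gene was silent in that animal, and a fold change of these genes rests on how many libraries fell low.

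Summed over the shared members of their role, the IFT genes overlapped between challenge and control in each genotype. The 9 shared IFT genes summed to 343 ± 24.4 CPM (SD, n = 4) in WT uninjured and 319 ± 45.3 (n = 4) in WT LPS. They summed to 320 ± 11.7 (n = 3) and 299 ± 33.7 (n = 4) in Stat3cKO uninjured and LPS. In Smarca4cKO the sums were 341 ± 65.5 (n = 3) uninjured, 297 ± 71.8 (n = 3) after LPS and 279 ± 30.9 (n = 4) after SCI, and the ranges of the 3 groups overlapped. Across genotypes, every SCI library (246 to 318) lay below every WT uninjured library (326 to 379) on this scale. Over each table's own total these groups overlapped, at 249 to 341 and 293 to 324 CPM. Crush, Smarca4 deletion and strain differ together between them.

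The kinesin-2 sum was 148 ± 34.6 CPM in WT uninjured and 275 ± 28.5 in Smarca4cKO uninjured, where all 3 libraries (242 to 295) lay above all WT uninjured libraries (113 to 187). This difference goes with a difference of strain. The 6 shared motile axoneme genes summed to 141 ± 9.65 CPM in WT uninjured and 115 ± 13.3 in WT LPS. Every LPS library (98.5 to 130.3) lay below every uninjured library (130.8 to 153), by a narrow gap. Over each table's own total the groups overlapped, at 116.9 to 137.9 CPM uninjured and 90.7 to 122.9 after LPS. On the common scale without Dnal1 and Dnal4 the sums were 65.2 ± 8.73 and 53.1 ± 15.1 CPM, and the groups overlapped. In the other genotypes the motile sums overlapped between challenge and control, at 132 ± 28.8 and 115 ± 18.4 in Stat3cKO, and at 173 ± 15.5, 119 ± 52.6 and 126 ± 34.8 in Smarca4cKO uninjured, LPS and SCI.

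**Figure D3:**
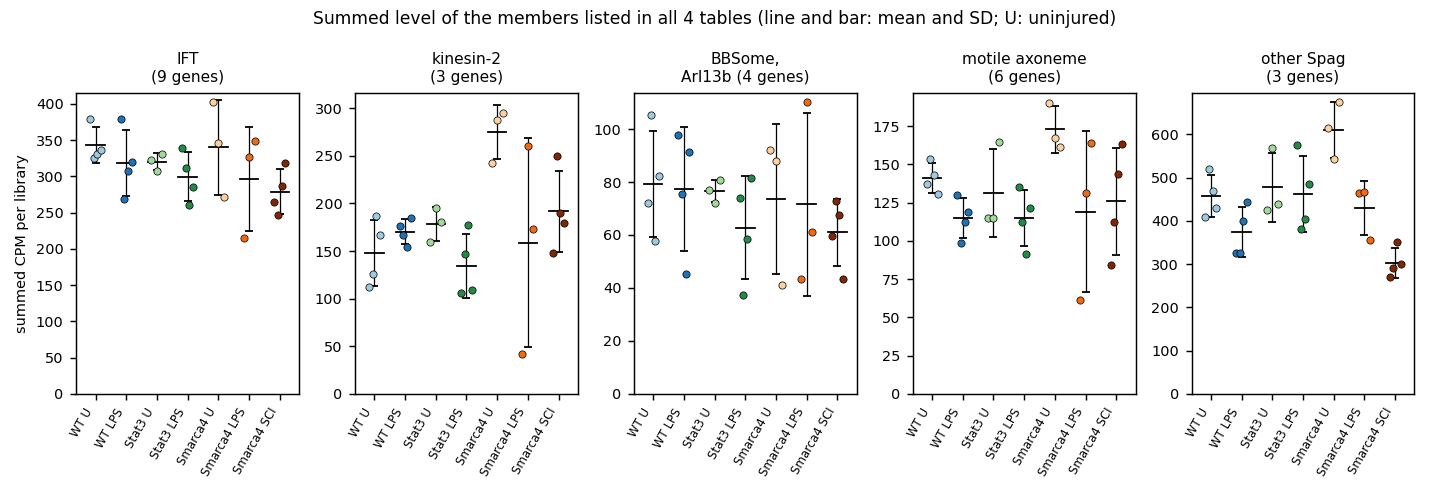
Summed CPM of the members listed in all 4 tables, for each role (panels, with the number of genes) and each library (points), with the group mean and SD as line and bar. The IFT sums of WT uninjured libraries (326 to 379) lie above those of SCI (246 to 318), but overlap them over each table's own total. The kinesin-2 sums of Smarca4cKO uninjured libraries lie above those of WT uninjured.

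In WT mice, LPS changed none of the cilia genes past the threshold. Of 44 members, 0 were called by edgeR's quasi-likelihood test at a Benjamini-Hochberg adjusted p under 0.05, while 2.54% of 10566 genes were (1.54% higher and 0.994% lower). At an unadjusted p under 0.05 there were 5 (13.8% of all genes), and DESeq2 called 2 (5.8% of all genes), so both counts were below the background. The median log2 fold change was -0.20 over the members and -0.0048 over all genes.

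Ift22, a small GTPase of the IFT-B train, was at 55.7, 66.4, 45.7 and 58.0 CPM in uninjured libraries and at 37.4, 34.8, 35.2 and 30.1 after LPS. All LPS libraries were below all uninjured ones, with a log2 fold change of -0.75 ± 0.26 (SE) and an edgeR adjusted p of 0.176. Dnal1 was at 44.7, 29.4, 47.4 and 49.2 CPM, and after LPS at 21.5, 21.4, 26.9 and 26.0. Its groups did not overlap either (-0.86 ± 0.32, edgeR adjusted p = 0.214). These were the 2 of 44 members without overlap. The share of all genes without overlap was not computed for WT, so this count is a description only.

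Both genes that DESeq2 called belong to the motile axoneme. Spag8 was at 0, 0.0121, 0 and 0.284 CPM in uninjured libraries and 0.128, 1.40, 3.98 and 13.5 after LPS, at levels that overlapped (5.92 ± 2.23 on the log2 scale, edgeR adjusted p = 0.229, DESeq2 adjusted p = 0.0283). Spef1, a microtubule-bundling protein of the central pair, was at 18.8, 17.3, 2.22 and 12.7 CPM uninjured and 0.0639, 2.58, 0.0144 and 0.00912 after LPS (-4.29 ± 1.76, edgeR adjusted p = 0.283, DESeq2 adjusted p = 0.0408). In Stat3cKO mice Spef1 was at 2.83 to 4.40 CPM uninjured and 2.76 to 6.80 after LPS. The largest values of the other roles were 1.61 ± 1.14 for Ift74 and -1.52 ± 1.82 for Ift88 among IFT genes, -0.38 ± 0.58 for Arl13b and -0.34 ± 0.53 for Bbs1, 0.58 ± 0.32 for Kif3c and -0.52 ± 0.28 for Kif3a, and -0.61 ± 0.36 for Spag5 and -0.60 ± 0.26 for Spag7.

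In Stat3cKO mice, Tekt4 rose and Akap14 fell after LPS, and no other member passed. These were 2 of 45 members, a smaller share than the 10.6% of 11709 genes called (7.12% higher and 3.44% lower). At an unadjusted p under 0.05 there were 4 members (24.1% of all genes), and DESeq2 called 3 (14.8% of all genes). The median log2 fold change was -0.45 over members and -0.0098 over all genes, and 31 of the 45 members had a negative value. Libraries of the 2 groups did not overlap for 2 members that were higher after LPS, Tekt4 and Arl13b, and for 6 that were lower, Ift22, Ift46, Bbs1, Dnali1, Tekt5 and Akap14. Over all genes the groups did not overlap for 14.3% that were higher and 13.1% that were lower, so the members' counts are near or below the background.

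Markers of other cells moved in the same comparison. Of 14 neuron markers tested 4 were called higher and 0 lower, and the 9 in all 4 tables summed to 348 to 459 CPM uninjured and 672 to 952 after LPS. Of 7 microglia and macrophage markers 2 were called higher, Cd68 and C1qb, the latter at 2.02 to 14.8 CPM uninjured and 24.2 to 67.7 after LPS. Cd68 had 8.65 ± 1.58 (edgeR adjusted p = 0.00673), a size seen here for genes at or near 0 in the controls. The 3 of these markers in all 4 tables summed to 56.6 to 81.5 CPM uninjured and 74.4 to 123 after LPS, which overlap. Oligodendrocyte markers were called higher for 2 of 14 and lower for 2, and summed to 6172 to 7992 and 9942 to 13010 CPM. Of 18 ependymal markers 1 was called higher, Nes (3.27 ± 0.42, edgeR adjusted p = 0.000906), and 0 lower. The median log2 fold change of that list was -0.022, against -0.0098 over all genes. Foxj1, on the same list, was at 89.7 to 105 CPM uninjured and 24.0 to 72.8 after LPS, and was not called. Of 15 astrocyte markers 3 were called higher and 2 lower. The part of these cells in the values of the cilia genes was not tested.

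Tekt4 encodes a tektin, a filament protein inside the doublet microtubules of motile cilia and sperm flagella, and lies at chromosome 17, 25454615 to 25476602 (GENCODE M21, + strand). Its level was 4.43, 12.7 and 14.3 CPM in Stat3cKO uninjured libraries and 56.6, 41.0, 32.3 and 53.1 in the libraries labelled Stat3cKO LPS. Every LPS library was above every uninjured one, and the log2 fold change was 2.14 ± 0.44 (edgeR adjusted p = 0.0125). The call held in each of the 7 fits that left out 1 library, at adjusted p between 0.0138 and 0.0364. Of the other tektins, Tekt1 was at 4.55 to 15.01 CPM uninjured and 0.754 to 10.0 after LPS, and Tekt5 at 8.34 to 14.5 and 0 to 6.77.

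Akap14, which anchors protein kinase A in the axoneme of motile cilia, lies at chromosome X, 37150698 to 37168842 (- strand). It had 203, 475 and 385 counts in the uninjured libraries and 0 in all 4 LPS libraries. In CPM the uninjured libraries were at 2.70, 7.61 and 4.47. Against a floor of 3 counts over the group it was at least 432-fold lower after LPS (edgeR adjusted p = 0.0161), a bound that covers counting error only. The call was lost without Stat3cKO uninjured replicate 2 (adjusted p = 0.0604). Akap14 was listed in the Stat3cKO table alone, where 32 of 11712 genes (0.273%) had 10 or fewer counts in all LPS libraries. A gene at 0 in every LPS library is in that table only through its uninjured libraries and had to differ, so the call is a description of these libraries.

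Bbs1, a subunit of the BBSome, came next. It was at 31.3, 46.4 and 29.8 CPM uninjured and 18.4, 5.08, 9.35 and 15.6 after LPS, all LPS libraries below all uninjured ones (-1.55 ± 0.46, edgeR adjusted p = 0.0566). DESeq2 called it (adjusted p = 0.0247), and so did edgeR without Stat3cKO LPS replicate 1 (adjusted p = 0.0476). In WT mice the Bbs1 libraries overlapped between the groups, at 14.0 to 48.6 CPM uninjured and 11.4 to 28.7 after LPS.

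Among the 14 IFT genes of Stat3cKO mice, 0 were called by edgeR or DESeq2, 1 had an unadjusted p under 0.05 (Ift27), and the median was -0.48. Ift22 was at 52.4, 48.3 and 44.5 CPM uninjured and 32.1, 34.04, 35.1 and 42.3 after LPS (-0.42 ± 0.23, edgeR adjusted p = 0.315). These groups were also apart, as they were in WT mice, but in Stat3cKO mice 13.1% of all genes were apart and lower. The largest IFT values were -2.28 ± 1.38 for Ift172 and -1.11 ± 1.63 for Ift88. The kinesin-2 values were -0.51 ± 0.33 for Kif3c, -0.31 ± 0.26 for Kif3a and -0.15 ± 0.49 for Kif3b.

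Arl13b, a small GTPase of the ciliary membrane, was at 11.4, 9.27 and 10.97 CPM uninjured and 24.4, 15.6, 17.0 and 17.6 after LPS (0.83 ± 0.40, edgeR adjusted p = 0.240). Bbs10, a chaperonin-like factor for BBSome assembly, had -1.27 ± 1.82. The other Spag genes lay between -0.18 ± 0.34 for Spag5 and 0.01 ± 0.20 for Spag9.

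**Figure D4:**
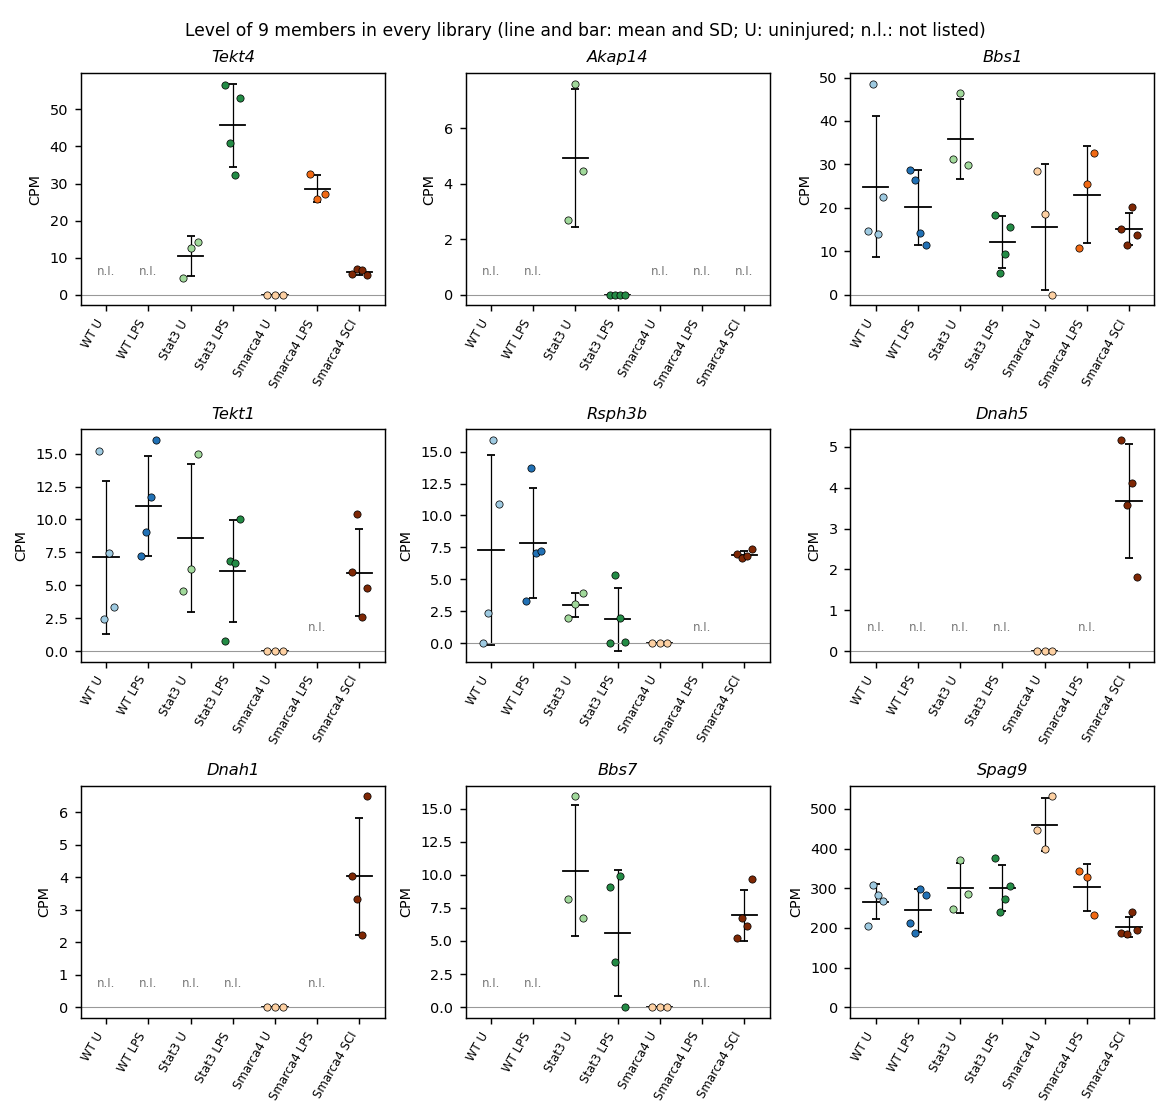
CPM in every library (points) of the 9 members named in the calls, with the group mean and SD as line and bar and n.l. where the gene was not listed. Tekt4 stands at 32.3 to 56.6 in Stat3cKO LPS and near 0 in Smarca4cKO uninjured, and Akap14 is at 0 in all Stat3cKO LPS libraries.

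In Smarca4cKO mice after LPS, 0 of 26 members were called by edgeR, where 0.0249% of 8040 genes were. There were 2 at an unadjusted p under 0.05, Tekt4 and Spag9, and DESeq2 called 1, Tekt4, where 5.82% and 3.58% of all genes were. Tekt4 had 1, 1 and 2 counts in the uninjured libraries and 1969, 1888 and 3122 after LPS. In CPM the LPS libraries were at 32.7, 25.8 and 27.3 and the uninjured ones at 0.0112, 0.0134 and 0.0242. These groups lay far apart, with an unadjusted edgeR p of 0.000912 and an adjusted p of 0.193 (DESeq2 adjusted p = 7.08e-10). There, 73 genes (0.907%) had 10 or fewer counts in all uninjured libraries, and edgeR called 0 of these higher. Tekt4 is in that table only through its LPS libraries and had to differ, so its p-values add nothing to the counts.

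Spag9 was at 448, 400 and 532 CPM uninjured and 344, 329 and 233 after LPS (-0.61 ± 0.23, edgeR adjusted p = 0.679). All 3 LPS libraries were below the uninjured ones. The largest values of the other roles were -3.35 ± 2.82 for Ift172 and -2.06 ± 2.44 for Ift140, -3.17 ± 2.37 for Bbs2 and 2.75 ± 2.64 for Arl13b, -2.96 ± 2.24 for Dnal1, and -1.42 ± 0.93 for Kif3b. Dnal1 and Bbs2 were both under 0.04 CPM in LPS libraries 1 and 2, and at 16.4 and 11.5 in library 3. Of the 26 members, 4 were lower after LPS without overlap, Spag9, Ift22, Dnal1 and Ift172, and 2 were higher, Tekt4 and Arl13b. Ift22 was at 43.6, 39.9 and 88.2 CPM uninjured and 26.1, 28.95 and 29.3 after LPS. The share of all genes without overlap was not computed for Smarca4cKO LPS, so these counts are a description only.

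After spinal cord crush in Smarca4cKO mice, 6 members rose and 1 fell, out of 39, where 14.5% of 11109 genes were called (10.1% higher and 4.31% lower). Those that rose were Rsph3b, Tekt1, Dnah5, Dnah1 and Tekt4 of the motile axoneme (5 of 13 tested) and Bbs7 of the BBSome. Spag9 fell. DESeq2 called 8 (21.5% of all genes), the additional one being Spag5. None of 14 IFT genes and none of 3 kinesin-2 genes was called by edgeR, with medians of -0.31 and -0.78 on the log2 scale, against 0.07 over all genes. No IFT or kinesin-2 gene had an unadjusted p under 0.05, and DESeq2 called none of them.

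Rsph3b, a radial spoke protein at chromosome 17, 6904413 to 6948682, was at 0 in all 3 uninjured libraries and at 6.95, 6.65, 6.80 and 7.36 CPM after SCI. It was at least 570.0-fold higher (edgeR adjusted p = 0.00652). Mice have a near-identical copy, Rsph3a, so that reads of the pair may be split or lost, and the value is uncertain in that respect. In WT uninjured libraries Rsph3b was at 0.0189, 2.34, 15.9 and 10.9 CPM, a range that holds the SCI values.

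Tekt1, another tektin, at chromosome 11, 72344722 to 72362442, was also at 0 in the 3 uninjured libraries and at 6.04, 10.4, 2.61 and 4.83 CPM after SCI. This made it at least 481-fold higher (edgeR adjusted p = 0.00652). WT uninjured libraries held it at 15.2, 2.46, 7.47 and 3.36 CPM, again the range of the SCI libraries. Tekt4 rose from the 1 to 2 counts given above to 5.53, 6.96, 6.80 and 5.36 CPM (8.37 ± 1.14, edgeR adjusted p = 0.00552), below its level after LPS in the same genotype.

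Of the 4 heavy chains, Dnah5 and Dnah1 were listed in the SCI table alone, Dnah6 in the WT table and Dnah9 in the Stat3cKO table. Dnah5, the motor of the outer dynein arm (chromosome 15, 28203752 to 28472052), was at 0 uninjured and at 5.17, 3.58, 4.11 and 1.82 CPM after SCI, at least 316-fold higher (edgeR adjusted p = 0.00652). Dnah1, an inner arm heavy chain (chromosome 14, 31260375 to 31323896), had 0, 1 and 0 counts uninjured and 454, 250, 195 and 484 after SCI. Its ratio of rates was 974, with an exact 95% counting interval of 174.5 to 38500 (edgeR adjusted p = 0.00652).

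Bbs7, a BBSome subunit at chromosome 3, 36573142 to 36613477, had 0, 1 and 0 counts uninjured and 588, 504, 542 and 720 after SCI. The ratio was 1658 with a counting interval of 297 to 65510 (edgeR adjusted p = 0.00652). In CPM the SCI libraries were at 5.24, 6.70, 6.14 and 9.65, inside the 0 to 15.9 seen over the Stat3cKO libraries. Of the other BBSome subunits, Bbs4 was at 0, 17.2 and 45.8 CPM uninjured and 11.8 to 22.6 after SCI, and Bbs9 at 16.3 to 21.4 and 0.0267 to 16.8.

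These 6 risers were also the 6 members with 10 or fewer counts in all 3 Smarca4cKO uninjured libraries. Among all genes listed there, 832 of 11115 (7.49%) had so few, and 828 of those 832 (99.5%) were called higher after SCI. A gene with such counts in every control is in the table only through its SCI libraries and had to differ, so the number of risers is a description of these libraries. The calls held in each of the 7 fits without 1 library.

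Spag9 (chromosome 11, 93996091 to 94126085) was the member that fell, and it was plentiful in both groups. It was at 448, 400 and 532 CPM uninjured and at 186, 186, 240 and 195 after SCI, or 460 ± 67.1 (SD, n = 3) and 202 ± 25.8 (n = 4). The groups were far apart, with a log2 fold change of -1.26 ± 0.16 (edgeR adjusted p = 0.0042), and each fit without 1 library kept the call. Against WT uninjured libraries, at 205, 308, 282 and 268 CPM, the Smarca4cKO uninjured libraries were the high ones and the SCI libraries lay at the lower end. Spag5 was at 82.3, 90.4 and 73.7 CPM uninjured and 15.2, 59.8, 42.8 and 25.01 after SCI, with no overlap (-1.28 ± 0.47, edgeR adjusted p = 0.143, DESeq2 adjusted p = 0.0341).

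The IFT genes of highest value were Ift140 at -1.40 ± 0.80, Ift172 at -1.09 ± 0.79 and Ift20 at 1.02 ± 0.98. Ift27, the most abundant IFT gene per length in uninjured libraries, was at 85.7, 94.4 and 23.7 CPM uninjured and 26.2, 42.7, 46.8 and 57.9 after SCI, and the groups overlapped. Kif3a, the common motor subunit of kinesin-2, was at 66.1, 79.3 and 93.1 CPM and at 62.7, 112, 67.3 and 58.7 after SCI (-0.16 ± 0.30). Kif3b and Kif3c had -0.91 ± 0.54 and -0.78 ± 0.36, though 35.3% of the exon length of Kif3c overlaps 1110002L01Rik, and the strand setting of the counting is not given in the sources used here. Rsph1 and Dnaic1, motile axoneme genes present in the controls, were at 9.10 to 29.3 and 23.1 to 70.1 CPM uninjured and at 9.06 to 31.8 and 5.71 to 27.8 after SCI.

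Markers of other cells moved with the SCI comparison. Of 24 ependymal markers, 13 were tested there, 6 were called higher and 0 lower, where 10.1% of all genes were called higher. Acta2, on this list and also a mural marker, was among those called (10.2 ± 1.68). Mia and Dynlrb2 were at 0 in all 3 uninjured libraries and Rarres2 at 0.0485 CPM or less, and after SCI they were at 6.80 to 16.4, 4.06 to 12.9 and 53.1 to 69.0 CPM. In WT uninjured libraries these genes were at 5.46 to 29.2, 7.21 to 17.98 and 17.7 to 52.4 CPM. Being at or near 0 in every Smarca4cKO control, they had to differ after SCI. Tppp3 rose from 69.5 to 176 to 280 to 372 CPM (1.39 ± 0.32, edgeR adjusted p = 0.0211), while Foxj1, the transcription factor of motile cilia, was at 89.1, 107 and 9.22 CPM uninjured and 123, 209, 176 and 165 after SCI (1.20 ± 0.69, adjusted p = 0.404).

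The 6 ependymal markers in all 4 tables, among them the broadly expressed Vim, summed to 720 to 948 CPM in Smarca4cKO uninjured and 2282 to 2584 after SCI. The same sum was 956 to 1146 in WT uninjured, 1140 to 1758 in WT LPS, 873 to 981 in Stat3cKO uninjured, 989 to 1259 in Stat3cKO LPS and 1053 to 1806 in Smarca4cKO LPS. Oligodendrocyte markers (8 of 14 called higher, 0 lower) summed to 6654 to 13120 CPM in Smarca4cKO uninjured and 28840 to 39630 after SCI. Proliferation markers were called higher in 9 of 9 tested, where 10.1% of all genes were. Their median log2 fold change was 12.35, a size seen here for genes at or near 0 in the controls. Such genes had to differ, so this count is a description. Of 15 astrocyte markers, 9 were called lower and 1 higher. The part of these cells in the rise of the axoneme genes was not tested.

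**Figure D5:**
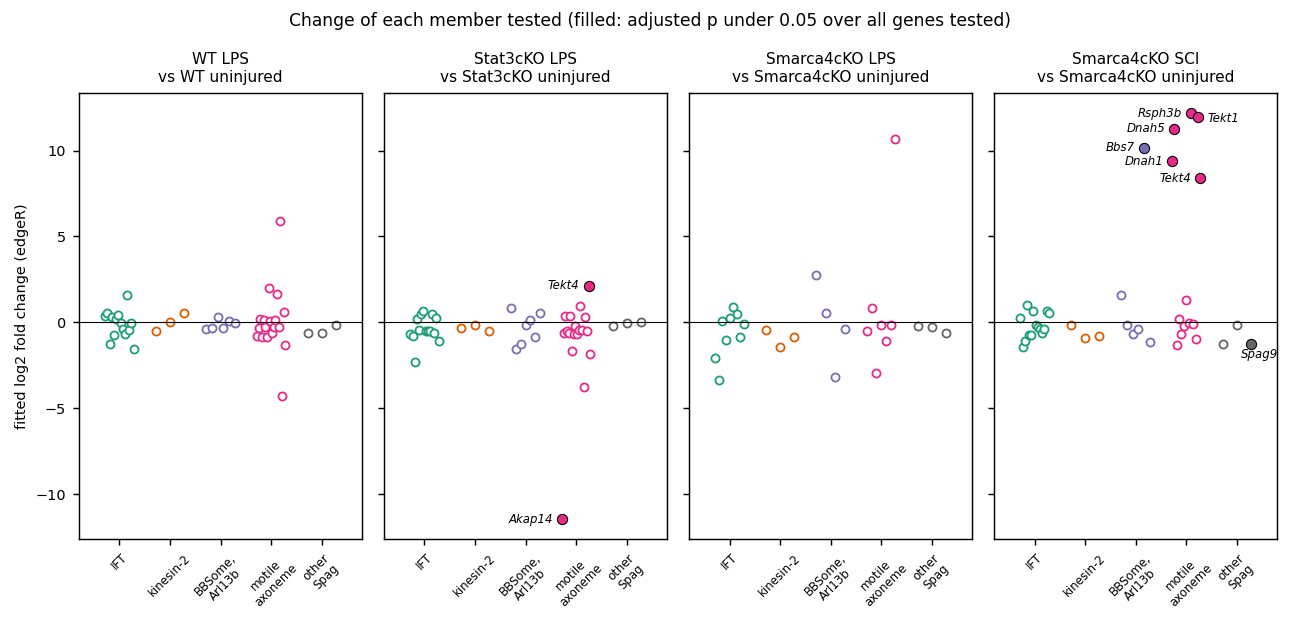
Fitted log2 fold change (y axis) of each member tested in the 4 challenge comparisons (panels), by role (x axis), filled where the adjusted p was under 0.05. The IFT and kinesin-2 points are open in all 4 panels, and 6 filled points lie above 8 in the SCI panel, where the fitted size of genes near 0 in the controls depends on the prior count.

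Before any challenge, the genotypes did not differ in these genes past the threshold by edgeR. Stat3cKO and WT uninjured libraries differed in 0 of 40 members by edgeR (0.0777% of 10301 genes called), 0 at an unadjusted p under 0.05 and 0 by DESeq2. Smarca4cKO and WT uninjured libraries differed in 0 of 35 (0.0101% of 9891 genes called), with 4 at an unadjusted p under 0.05 (9.59% of all genes) and 3 by DESeq2 (5.99%). DESeq2 called Rsph3b, Tekt1 and Spag9. Rsph3b and Tekt1, at 0 in all Smarca4cKO uninjured libraries, were at least 574-fold and at least 512-fold lower than in WT. Their adjusted p was 0.254 and 0.163 by edgeR and 9.35e-05 and 3.69e-06 by DESeq2. Both are listed for Smarca4cKO mice only through their SCI libraries. Spag9 had 0.82 ± 0.19 (edgeR adjusted p = 0.151, DESeq2 adjusted p = 0.000203) and Kif3c 1.00 ± 0.42 (edgeR adjusted p = 0.474). Genotype and strain cannot be told apart in this comparison.

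Whether a deletion altered the response of a member was tested as an interaction. The Stat3cKO response to LPS minus the WT response gave 0 of 40 members (0.377% of 10341 genes called, 0.3% higher and 0.0774% lower). There were 2 at an unadjusted p under 0.05 (9.28% of all genes), Kif3c at -1.11 ± 0.49 and Spef1 at 4.58 ± 2.08, and DESeq2 called 0. The Smarca4cKO response minus the WT response gave 0 of 25 (0.316% of 7919 genes, 0.177% higher and 0.139% lower), with 0 at an unadjusted p under 0.05 and 0 by DESeq2. Tekt4 and Akap14 were not in the WT table, so their responses could not be set against WT.

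Crush and LPS in Smarca4cKO mice share their 3 uninjured libraries, and the difference of the responses gave 0 of 26 members (3.78% of 7969 genes, 1.41% higher and 2.37% lower). At an unadjusted p under 0.05 there were 2 (13% of all genes), Spag9 at -0.58 ± 0.19 (edgeR adjusted p = 0.161) and Tekt4 at -2.21 ± 0.88 (adjusted p = 0.284). DESeq2 called Spag9 (adjusted p = 0.0244) and 9.22% of all genes. Smarca4cKO LPS replicate 3 decided these last counts. Without it, 4 members were called in the Smarca4cKO minus WT comparison (Bbs2, Dnal1, Ift140 and Rsph1) and 6 in crush minus LPS (the same 4 with Ift172 and Spag9), each of the first 5 being near 0 in LPS replicates 1 and 2. Calls over all genes rose too, to 367 of 7919 and 763 of 7970, against 25 and 301 with that library.

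The partners of these genes, were taken from lists chosen by function. After LPS in WT mice, 0 of 23 IFT and BBSome partners, 0 of 33 transition zone and ciliary membrane genes and 0 of 12 further motile axoneme and assembly genes were called by edgeR, with 0 in each list at an unadjusted p under 0.05 and 0 by DESeq2.

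In Stat3cKO mice after LPS, 2 of 23 partners were called, the BBSome subunits Bbip1 and Ttc8, in opposite directions, a share below the 10.6% of all genes called there. Bbip1 went from 18.3 to 22.7 CPM uninjured to 33.5 to 53.4 (1.07 ± 0.28, edgeR adjusted p = 0.0361) and Ttc8 from 12.1 to 29.1 to 4.01 to 9.17 (-1.88 ± 0.53, adjusted p = 0.0466). Of 33 transition zone and membrane genes, Inpp5e, a phosphoinositide phosphatase of the ciliary membrane, was the 1 called, from 26.1 to 31.8 CPM to 4.32 to 11.7 (-1.82 ± 0.44, edgeR adjusted p = 0.0251). None of these groups overlapped. Of 20 further motile axoneme genes edgeR called 0 there, with 3 at an unadjusted p under 0.05 (24.1% of all genes) and 2 by DESeq2 (14.8%).

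In Smarca4cKO mice after LPS, edgeR called 0 of 13 partners, 0 of 17 transition zone genes and 0 of 3 further motile axoneme genes, with 0, 2 and 0 at an unadjusted p under 0.05 and 0, 1 and 0 by DESeq2. Over all genes, 5.82% had such a p and DESeq2 called 3.58%. After SCI, 4 of 15 further motile axoneme genes rose, where 10.1% of 11109 genes did, among them Dnaaf2, a dynein arm assembly factor, at 3.04 to 12.2 CPM. In the same comparison 1 of 19 partners rose, Rabl2, a small GTPase that binds IFT-B, at 0.517 to 16.6 CPM. Dnaaf2 and Rabl2 had 0 counts in every uninjured library, so they too had to differ. EdgeR called 0 of 27 transition zone genes after SCI, with 3 at an unadjusted p under 0.05 (22.4% of all genes) and 2 by DESeq2 (21.5%).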

How the data were processed

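Ribosome-associated messenger RNA was sequenced (50 bp paired reads from 10 ng of RNA, integrity number at least 8.9). The submitters' processing notes list edgeR 3.28.0, HTSeq 0.6.0, STAR 2.4.0j and mm10, with no role given, and the strand setting is not given in the sources used here. The authors deposited 4 tables, 1 for each challenge against its own genotype's controls, holding raw counts per gene; each table omits genes, by a rule not given in the sources used here. The tables' p-values, false discovery rates and log2 fold changes are the authors' own, per the file headers, and were used only for a count. In the authors' deposited tables, 0, 3, 1 and 7 members had a false discovery rate under 0.05 after WT LPS, Stat3cKO LPS, Smarca4cKO LPS and SCI. These were out of 44, 45, 26 and 39 members, and the shares over all genes were 5.13%, 13.8%, 2.16% and 15.5%. Another 56 per-sample columns, the authors' normalized values, were not used.

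Counts were tested with edgeR 4.0.16 in R 4.3.3 (TMM scaling, filterByExpr, quasi-likelihood test, Benjamini-Hochberg adjusted p under 0.05 over all genes of the comparison), each comparison with its own libraries. Interactions were fitted on the groups concerned. DESeq2 1.42.0, other scaling, no filter, a fit of all 7 groups and leaving out each library were alternatives. CPM was made from the deposited counts over the TMM-scaled total of the 7834 genes in all 4 tables. Levels carry an SD and log2 fold changes an SE. Where a group had 0 counts, folds are bounds against 3 counts over the group, and 1 count gives a ratio with an exact 95% interval; both cover counting error only. Positions and exon lengths come from GENCODE M21 (GRCm38). The table's chromosome for Spag6 differed from that annotation, so no position or length is given for it.

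On simulated counts, the test recovered 57% of 100 genes changed by 2 and 72% of 100 changed by 3 (log2) in the Stat3cKO LPS comparison (11705 genes), and 15% and 41% in the SCI comparison (11106 genes), with 3 false calls in each. Each library is a separate animal by its title, and numbers only name animals. The members, roles and lists were chosen with earlier results of these data known. The text gives every member past the threshold, the most abundant and the most changed members of each role, and counts for the lists with at most 2 called changes in each direction.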

Additional observations from a re-analysis of the deposited data

Results flagged for a closer look

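In groups of 4 libraries, a library stands apart where its gap to the nearest other exceeds 0.829 of the group's range (Dixon's test at 95%). Of 171 pairs of member and group, 15 held such a library, 10 high and 5 low. Chance flags about 1 in 20 groups only where values are normally distributed, which these CPM need not be. The share of groups flagged over all genes was not computed, so the count is a description and shows no excess among the members. No explanation of the flagged libraries was tested.

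Among transport genes, Ift57 stood at 60.98 CPM in WT LPS replicate 3 against 21.5 to 24.99 in the other libraries of that group, and at 31.04 in SCI replicate 1 against 37.5 to 38.2. Ift20, an IFT-B protein, was at 8.125 CPM in Stat3cKO LPS replicate 2 against 12.6 to 12.97. Kif3a was at 112.2 CPM in SCI replicate 2 against 58.7 to 67.3. Bbs2 was at 40.81 CPM in WT uninjured replicate 4 against 15.1 to 17.8, and Bbs5, another BBSome subunit, was at 0 in the same library against 7.96 to 9.38.

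Among motile axoneme genes, Dnaic1 was at 56.08 CPM in Stat3cKO LPS replicate 4 against 16.4 to 21.3, and Dnaic2 at 9.995 in SCI replicate 3 against 18.97 to 20.3. Rsph3a was at 7.625 CPM in WT uninjured replicate 3 against 0 to 1.17, and Rsph9 at 6.749 in WT LPS replicate 4 against 14.2 to 15.5. In WT uninjured replicate 2, Spag16, a central apparatus protein, was at 7.575 CPM while the other 3 libraries were at 0, and Tekt5 was at 20.07 against 4.90 to 7.19. Spag6, also of the central apparatus, was at 0.9267 CPM in Stat3cKO LPS replicate 3 against 0 to 0.0805. Spag8 was at 0.2836 CPM in WT uninjured replicate 4 against 0 to 0.0121, and Spef1 at 2.577 in WT LPS replicate 2 against 0.00912 to 0.0639.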

How the results depend on the processing

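No paired analysis was possible because titles carry animal numbers that no label links across groups. No called result changed direction under any alternative run. Among single members the 1 call lost was Akap14 without Stat3cKO uninjured replicate 2, and 26 member values passed the threshold under an alternative only. RLE scaling and no filter left every count within 1.5 times its value (250 and 270 genes for WT LPS, against 268).

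With DESeq2, genes called were 613 (268 by edgeR) for WT LPS, 288 (2) for Smarca4cKO LPS, 72 (8) for Stat3cKO against WT uninjured, 592 (1) for Smarca4cKO against WT uninjured, 166 (39) for the Stat3cKO minus WT response, 100 (25) for the Smarca4cKO minus WT response and 735 (301) for crush minus LPS; members called were 2, 1, 3 and 1 for WT LPS, Smarca4cKO LPS, Smarca4cKO against WT uninjured and crush minus LPS, each 0 by edgeR. With all 7 groups in 1 fit, which tests the 25 shared members only, genes called were 356 (1237) for Stat3cKO LPS, 278 for Smarca4cKO LPS, 768 (1606) for SCI, 176 for Smarca4cKO against WT uninjured, 1 for Stat3cKO minus WT, 73 for Smarca4cKO minus WT and 654 for crush minus LPS, and members called were 0, 1 (Spag9) and 1 (Spag9) for Stat3cKO LPS, SCI and Smarca4cKO against WT uninjured. A robust fit, chosen after seeing the data, called 6, 2 and 21 genes for Smarca4cKO LPS, Smarca4cKO against WT uninjured and Stat3cKO minus WT.

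Leaving out 1 library, genes called ranged from 29 to 217 for WT LPS, 657 to 1275 for Stat3cKO LPS, 2 to 5 for Smarca4cKO LPS, 1293 to 2266 for SCI, 1 to 13 and 0 to 5 for Stat3cKO and Smarca4cKO against WT uninjured, 14 to 119 for Stat3cKO minus WT, 14 to 367 for Smarca4cKO minus WT and 159 to 763 for crush minus LPS. Members called ranged from 0 to 1, 1 to 3, 0 to 0, 7 to 9, 0 to 0, 0 to 0, 0 to 1, 0 to 4 and 0 to 6 in the same order. For Stat3cKO LPS the count of genes fell to 657, 748 and 692 without uninjured replicates 1, 2 and 3, and for WT LPS to its lowest without LPS replicate 2. Of the summed levels, 11 moved and 31 did not move by more than 1 SD when each table's own total, or the motile role without Dnal1 and Dnal4, was used. The additions were Spag16 without WT uninjured replicate 2, Bbs1 without Stat3cKO LPS replicate 1, Arl13b and Ift88 (SCI) and Arl13b (Smarca4cKO minus WT) without Smarca4cKO uninjured replicate 3, Spef1 without WT LPS replicate 2, and those without Smarca4cKO LPS replicate 3 given above. The cause was not tested. Groups of 3 or 4 libraries in which a gene can be at 0 limit what these tests can call.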

Other observations

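Hedgehog signalling, which in vertebrates runs through the primary cilium, had 2 genes that fell after crush in Smarca4cKO mice. Of 10 Hedgehog genes tested, 2 were called lower, 0 higher, and 5 had an unadjusted p under 0.05, where 4.31% of 11109 genes were called lower and 22.4% had such a p, with a median log2 fold change of -1.38 against 0.07 over all genes. DESeq2 called 5 (21.5% of all genes). Ptch1, a receptor and target of the pathway, was at 375, 285 and 299.9 CPM uninjured and at 30.8, 77.3, 96.6 and 70.4 after crush, so the groups were far apart (-2.28 ± 0.35, edgeR adjusted p = 0.00652). Hhip, another target that binds the ligand, fell from 24.7 to 69.9 CPM to 7.04 to 16.7 (-2.23 ± 0.59, edgeR adjusted p = 0.0404). Gli1, the target factor, was at 8.64, 70.8 and 12.1 CPM uninjured and 4.73, 5.95, 3.04 and 8.26 after crush (-2.59 ± 1.00, edgeR adjusted p = 0.165). Astrocyte markers also fell in this comparison (9 of 15 called lower and 1 higher), and the part of that in the Hedgehog values was not tested. After LPS, edgeR called 0 of 11 Hedgehog genes in WT, 0 of 11 in Stat3cKO and 0 of 9 in Smarca4cKO mice, with 1, 2 and 1 at an unadjusted p under 0.05 and 1 called by DESeq2 in each. Over all genes, 13.8%, 24.1% and 5.82% had such a p, and DESeq2 called 5.8%, 14.8% and 3.58%.

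Ciliogenesis transcription factors gave 1 call among 9 tested after LPS in Stat3cKO mice and 1 among 8 after crush, about the share of all genes called there (10.6% and 14.5%). After LPS, edgeR called 0 of 8 in WT and 0 of 3 in Smarca4cKO mice, with 1 and 0 at an unadjusted p under 0.05 and 1 and 0 by DESeq2. Over all genes in WT, 13.8% had such a p and DESeq2 called 5.8%. Rfx3 fell after LPS in Stat3cKO mice, from 46.0, 34.2 and 13.4 CPM to 4.47, 3.77, 13.6 and 2.82 (-2.33 ± 0.64, edgeR adjusted p = 0.0423), with the lowest uninjured library below the highest LPS library. It was also lower after LPS in WT mice, though edgeR did not call it there. The WT libraries were at 47.2, 37.3, 36.1 and 32.2 CPM uninjured and 19.3, 15.3, 3.33 and 10.2 after LPS, with no overlap. Rfx4 fell after crush in Smarca4cKO mice, from 240.3, 243 and 252 CPM to 125, 101, 106 and 96.1, with no overlap (-1.27 ± 0.15, edgeR adjusted p = 0.00303). Foxj1 was at 105, 98.4 and 89.7 CPM in Stat3cKO uninjured libraries and 24.0, 67.5, 72.8 and 29.6 after LPS, all below the uninjured ones (-0.997 ± 0.37, edgeR adjusted p = 0.123).

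The genes outside the list whose log2(CPM + 1) tracked the summed motile axoneme level most closely over the 25 libraries were 1700003E16Rik (Pearson's r = 0.793), Btbd1 (0.785), l7Rn6 (0.779), Ormdl2 (0.760) and Itsn1 (0.756). The points share libraries and depth, and the values are a description. Among the members, Arl13b had an r of -0.40 with the same sum.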
